A study of Mus musculus with 12 samples.

Results

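The protein components of the cytosolic ribosome are encoded in the mouse by a family of genes named Rps for the small (40S) subunit and Rpl or Rplp for the large (60S) subunit. Genes were taken by symbol alone: Rps or Rpl followed by a number and at most 1 letter, plus Rplp0, Rplp1, Rplp2 and Rpsa, without S6 kinases and pseudogenes. This gave 80 of the 17576 genes in the table, of which 31 belong to the small and 49 to the large subunit. No expression value entered the rule, though the family was chosen with earlier results of these data known.

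RNA was sequenced from C18-4 cells, an established mouse line derived from type A spermatogonia and labelled here with the strain "IRC mouse", in 12 libraries of total RNA that form 4 groups of 3. The 8276OV group carried a virus for overexpression of the long non-coding RNA lncRNA8276 and was compared with 5NC. The 8276KD group carried a virus for its inhibition and was compared with 3NC. The design text places each NC group beside its manipulated group without explaining the names 3NC and 5NC, and lncRNA8276 itself was not analysed here. All 4 groups share the same cell line. Whether replicates were grown separately is not stated, so p-values reflect variation among these libraries, part of which may be technical.

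A ribosome holds most of its proteins once, while Rplp1 and Rplp2 are present in more than a single copy, and ribosomal protein mRNAs are among the most abundant of a growing cell. Most of these mRNAs begin with a C followed by a run of pyrimidines, the 5′ terminal oligopyrimidine (TOP) motif, through which the mTOR pathway and the RNA-binding protein Larp1 control how well they are translated. The genes are short and have left many processed pseudogenes and other near-identical copies in the genome. In the male germ line, the copies Rpl10l and Rpl39l are known to be expressed in place of or beside Rpl10 and Rpl39, while Rpl3l is the heart and skeletal muscle counterpart of Rpl3.

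The level of a gene is given as a deposited value read as FPKM, which is scaled by transcript length and library total. It is a share of the library, so a change in RNA per cell and a change in the number of cells cannot be told apart. The lowest values imply 8.55 to 11.3 M fragments per library, and 10929 to 11165 genes per library reached 1 FPKM. Libraries of 1 group correlated at r = 0.993 to 0.998 on the log scale, and libraries of different groups at 0.951 to 0.988. Most germ cell markers were near absent: of the 12 listed genes in the table, 9 stayed below 1 FPKM in all 12 libraries, among them Gfra1, Ret, Zbtb16 and Ddx4, and the list summed to 4.55 to 5.22 FPKM in 8276OV, 6.95 to 7.26 in 5NC, 7.05 to 7.50 in 8276KD and 11 to 11.7 in 3NC. The fibroblast list, carried by Col1a1 and Dcn, summed to 386 to 444 FPKM in 8276OV, 489 to 498 in 5NC, 328 to 398 in 8276KD and 273 to 283 in 3NC. Sertoli cell markers summed to 57.8 to 60.1 FPKM in 8276OV, 65.5 to 67.9 in 5NC, 68.7 to 74.6 in 8276KD and 60.5 to 62.8 in 3NC, and peritubular myoid markers to 66.5 to 76.4 in 8276OV, 83.4 to 88.2 in 5NC, 67.4 to 78.6 in 8276KD and 77.5 to 82 in 3NC. Leydig cell and macrophage markers summed to at most 2.03 and 6.03 FPKM in any library. The part of cell composition in the results below was not tested.

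A TOP-type start, a C followed by at least 4 further C or T letters beginning within 10 bases of the annotated transcription start, was present in 35 of the 57 tested ribosomal protein genes that have a RefSeq promoter window (61.4%), against 37.0% of all tested genes and 34.4% of the 27025 genes with a window. The core CCGGAAG bound by ETS factors such as GABP occurred on either strand of the 300-base window in 42.1% of the family, against 21.5% of tested genes and 9.93% of all windows. The YY1 core AAGATGG occurred on either strand in 15.8% of the family, 8.61% of tested genes and 7.28% of all windows. The starts of 8 genes that moved strongly under overexpression are printed because they show the tract in genes that moved in opposite directions. They are the 4 with the largest rise and the 4 with the largest fall among genes that have the tract, chosen after their values were seen. Each line gives 40 bases before the annotated start and 20 bases from it, 5′ to 3′ on the gene's strand, from the RefSeq table of GRCm38.p6, with the pyrimidine tract in capitals. The windows lie at chrX:37085203-37085262 (minus strand) for Rpl39, chr11:114668540-114668599 (plus) for Rpl38, chrX:134585614-134585673 (plus) for Rpl36a and chr7:118116128-118116187 (minus) for Rps15a, which rose. Those of genes that fell lie at chr17:27635225-27635284 (minus) for Rps10, chr7:45718031-45718090 (plus) for Rpl18, chr17:24720023-24720082 (plus) for Rps2 and chr7:45128726-45128785 (minus) for Rpl13a.
Rpl39: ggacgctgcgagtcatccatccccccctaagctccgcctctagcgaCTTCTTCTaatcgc
Rpl38: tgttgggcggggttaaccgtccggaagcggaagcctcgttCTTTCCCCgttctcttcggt
Rpl36a: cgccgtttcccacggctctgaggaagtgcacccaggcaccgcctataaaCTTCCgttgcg
Rps15a: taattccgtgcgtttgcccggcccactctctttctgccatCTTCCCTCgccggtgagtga
Rps10: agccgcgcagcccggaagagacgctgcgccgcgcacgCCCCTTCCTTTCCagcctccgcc
Rpl18: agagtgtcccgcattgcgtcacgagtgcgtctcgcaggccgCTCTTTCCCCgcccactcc
Rps2: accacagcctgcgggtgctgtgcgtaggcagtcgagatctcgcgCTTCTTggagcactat
Rpl13a: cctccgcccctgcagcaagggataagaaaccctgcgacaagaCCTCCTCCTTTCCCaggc
Among genes with a window, the tract was found in 17 of the 34 that rose under overexpression (50%) and in 11 of the 15 that fell (73.3%). It was found in 7 of the 8 that were not called (87.5%). This is a description with no test.

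Ribosomal protein genes were at the top of the expression range. The median level over 12 libraries was 1328 FPKM for the 31 small subunit genes and 1302 FPKM for the 46 tested large subunit genes, against 13.9 FPKM for all 11360 genes tested, and 61 of the 100 highest genes belonged to the family. The small subunit ranged up to 2573 FPKM for Rps2, a core protein near the mRNA entrance, and the large subunit up to 3892 FPKM for Rpl23a, which lies at the nascent chain exit. A few genes lay far below the rest. Rps6, the substrate of S6 kinase, averaged 25.3 FPKM and Rpl29 9.36 FPKM, and these genes have 11 and 27 near-identical transcripts elsewhere in the annotation. The highest genes have such transcripts too, 32 for Rps2 and 20 for Rpl23a. Rps15a and Rps20, which were also below 200 FPKM, are the genes with the longest annotated transcripts of the family, 5179 and 3706 bases.

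The tissue-restricted copies were not detected. Rpl39l was listed at 0 in all 12 libraries, and the highest value was 0.07 FPKM for Rpl3l and 0.08 FPKM for Rpl10l. Their partners were abundant: Rpl39 averaged 1977 ± 167 FPKM in 8276OV, 1103 ± 49.2 in 5NC, 1508 ± 187 in 8276KD and 1316 ± 80.1 in 3NC (SD, n = 3 each). These 3 copies were not tested, and 77 genes remained. Of the 80 genes, 70 had at least 1 transcript of another gene with 95% identity over 300 bases, with a median of 4 and up to 59 for Rpl21. How reads shared with such copies were counted is not given in the sources used here, so values of these genes are uncertain, and those of genes with none, among them Rps21, Rps27l, Rps29, Rpl8, Rpl37a, Rpl38 and Rpl39, are the least exposed.

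Overexpression of lncRNA8276 divided the family. Against 5NC, 45 of the 77 tested genes rose in 8276OV and 19 fell (limma, adjusted p below 0.05), while 30.3% of all tested genes rose and 44.1% fell. In the small subunit 17 of 31 rose and 6 fell, and in the large subunit 28 of 46 rose and 13 fell. All 3 8276OV libraries lay above all 3 of 5NC in 17 small and 28 large subunit genes and below them in 6 and 14, against 32% and 45.6% of all tested genes. The median log2 fold change was 0.19 for the small and 0.29 for the large subunit, against -0.09 for all tested genes, and was above 0 under every scaling tried against 5NC. Measured against 3NC instead, 30 genes were higher and 28 lower in 8276OV, with 33.5% and 41.7% of all tested genes, and the median over both subunits was 0.05. Of the 45 genes that rose against 5NC, 30 were also higher and 2 were lower against 3NC, whereas all 19 that fell were also lower against 3NC. These 2 comparisons share the 8276OV libraries.

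**Figure D1:**
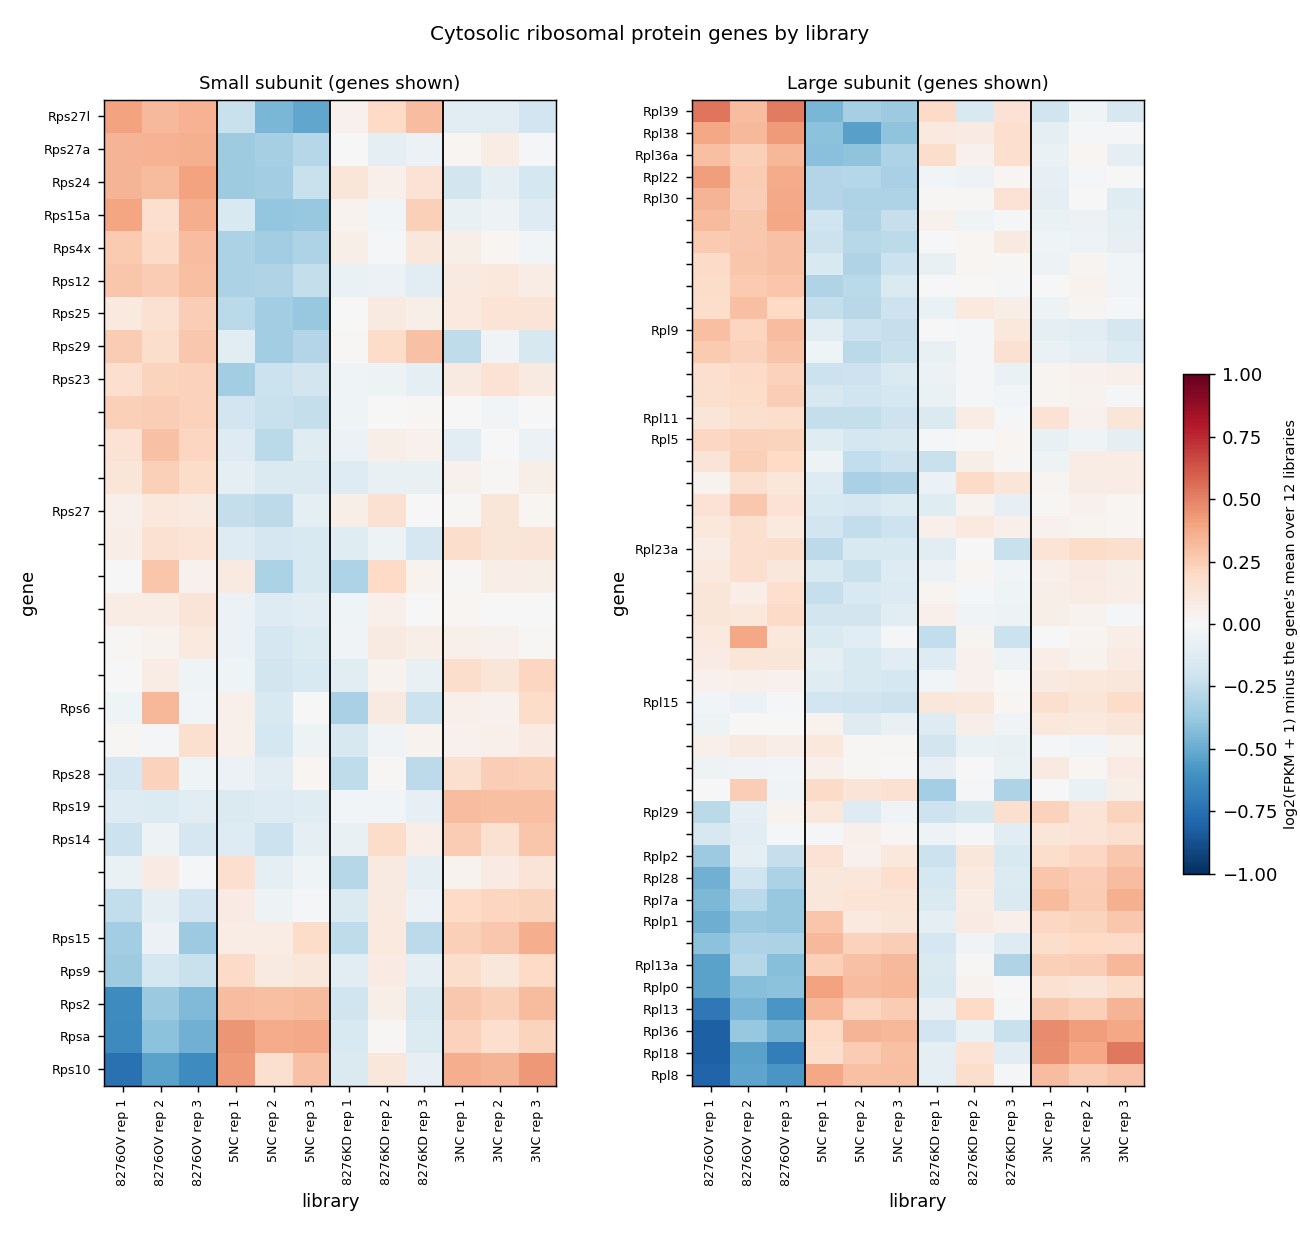
Heat map of log2(FPKM + 1) minus the gene's mean over 12 libraries, with the small subunit on the left and the large subunit on the right, libraries in columns and tested genes in rows (those named in the text are labelled, and a few are not shown) ordered by the fold change of 8276OV against 5NC. The top rows (Rps27l, Rpl39, Rpl38) are red in the 3 8276OV libraries and blue in 5NC, the bottom rows (Rps10, Rpsa, Rpl8, Rpl18) are the reverse, and 8276KD lies closer to the row mean.

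Large subunit genes led the rises. Rpl38, a small surface protein of the large subunit for which a mouse mutation is known to disturb translation of Hox mRNAs, had 4416, 4223 and 4534 FPKM in the 8276OV libraries, against 2536, 2314 and 2553 FPKM in 5NC. The lowest 8276OV library was far above the highest 5NC library, a log2 fold change of 0.83 ± 0.046 (SE, limma adjusted p = 3.96e-08). Rpl39, a very short protein that lines the exit tunnel, had 2080, 1785 and 2067 FPKM in 8276OV, against 1048, 1143 and 1118 FPKM in 5NC. The groups did not overlap, with a log2 fold change of 0.84 ± 0.083 (limma adjusted p = 1.51e-06). Neither gene has a near-identical copy, and both remained higher against 3NC (0.42 and 0.59). Rpl36a (0.67), Rpl22 (0.65) and Rpl30 (0.62 on the log2 scale) completed the 5 largest rises of the subunit.

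Among small subunit genes the largest rise was that of Rps27l, a close relative of Rps27 that is also known as a p53 target. It had 340.3, 323.5 and 327.8 FPKM in 8276OV, against 220.4, 187.5 and 179.2 FPKM in 5NC, a log2 fold change of 0.76 ± 0.074 (limma adjusted p = 1.34e-06) that was 0.20 with correction for GC content and transcript length. Its partner Rps27 had a higher level and a smaller rise, 2151 ± 40.9 FPKM in 8276OV and 1770 ± 112 FPKM in 5NC (SD, n = 3 each), a log2 fold change of 0.28 that was -0.07 with the same correction. Rps27a, made as a fusion with ubiquitin, rose by 0.67 ± 0.036 on the log2 scale (limma adjusted p = 3.65e-08), with 2895, 2915 and 2932 FPKM in 8276OV against 1789, 1821 and 1877 FPKM in 5NC. Rps24, a protein mutated in Diamond-Blackfan anaemia in humans, rose by 0.66, Rps15a by 0.61 and the X-linked Rps4x by 0.58 on the log2 scale.

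**Figure D2:**
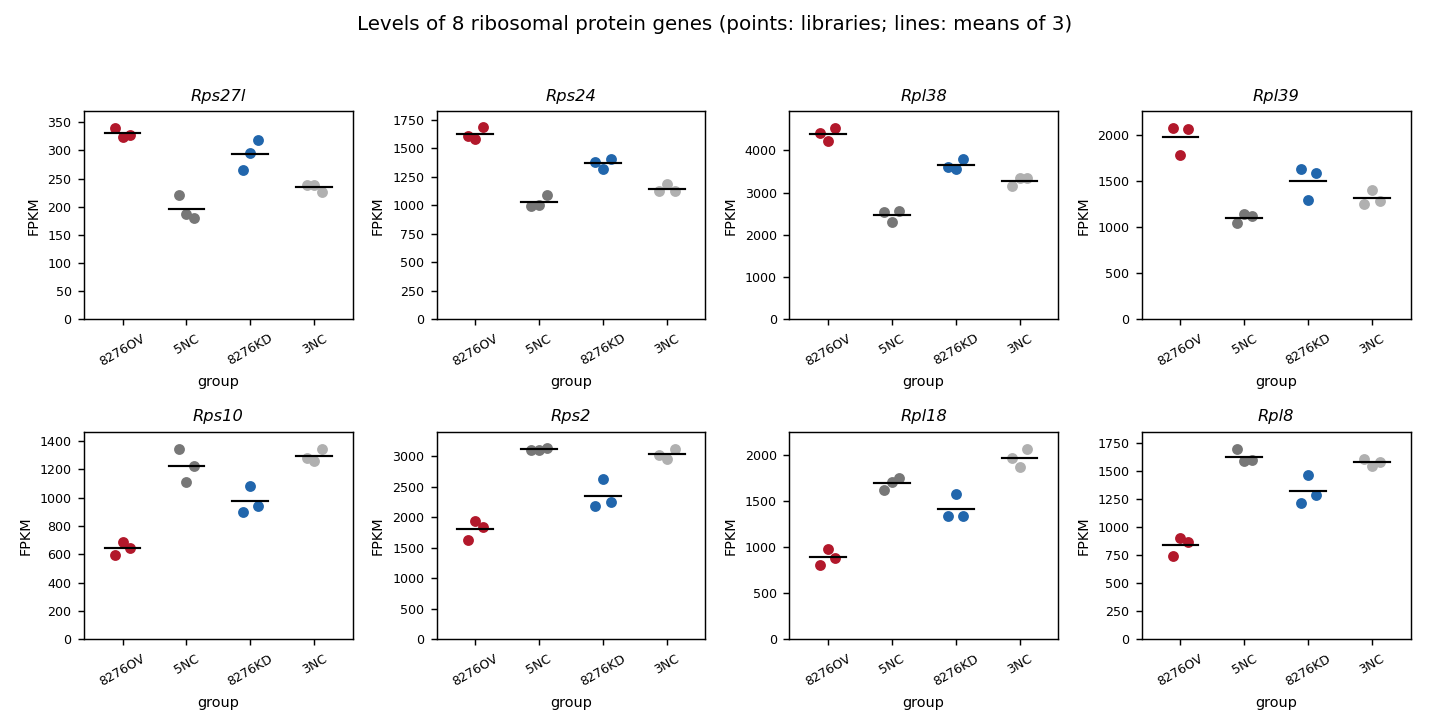
Level in FPKM of 8 ribosomal protein genes in the 4 groups, where each point is a library and the line is the mean of 3. Rps27l, Rps24, Rpl38 and Rpl39 are higher in 8276OV than in 5NC with no overlap, and Rps10, Rps2, Rpl18 and Rpl8 are lower in 8276OV than in 5NC and lower in 8276KD than in 3NC.

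The genes that fell included core proteins of both subunits. Rpl8, a core protein near the peptidyl transferase centre and without a near-identical copy, had 743, 898 and 865 FPKM in 8276OV, against 1696, 1588 and 1598 FPKM in 5NC, a log2 fold change of -0.96 ± 0.072 (limma adjusted p = 2.14e-07). Rps10, on the head of the small subunit, had 593, 686 and 645 FPKM in 8276OV, against 1340, 1113 and 1221 FPKM in 5NC (log2 fold change -0.93 ± 0.076, limma adjusted p = 3.72e-07). The highest 8276OV library of either gene was well below the lowest 5NC library. Rpl18 changed by -0.92, Rpl13 by -0.85 and Rpl36 by -0.85 in the large subunit. In the small subunit Rps2 changed by -0.79, Rps9 by -0.38 and Rps15 by -0.37 on the log2 scale. With a correction for GC content, described below, Rpl36 (-0.13) and Rps9 (-0.01) no longer passed the test and Rps15 was higher (0.42). With transcript length added to the correction, Rpl36 (-0.51) and Rps9 (-0.17) were again lower and Rps15 was higher (0.19).

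The acidic stalk of the large subunit recruits elongation factors, and its mRNAs were all lower in 8276OV in the values as deposited. Its base Rplp0 had 1054, 1136 and 1152 FPKM in 8276OV, against 2018, 1896 and 1922 FPKM in 5NC, a log2 fold change of -0.80 ± 0.051 (limma adjusted p = 7.28e-08). Rplp1 averaged 1436 ± 67.7 FPKM in 8276OV and 2144 ± 148 FPKM in 5NC, and Rplp2 averaged 1224 ± 115 FPKM in 8276OV and 1531 ± 53.6 FPKM in 5NC (SD, n = 3 each), log2 fold changes of -0.58 and -0.33. All 3 stalk genes fell, though with the correction for GC content only Rplp0 stayed past the threshold, and Rplp2 changed sign to 0.07. With length added to the correction Rplp1 was again lower (-0.32) and Rplp2 was not called (-0.03).

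Rpsa, also known as the laminin receptor, is a small subunit protein that is added late in assembly. It had 633, 738 and 702 FPKM in 8276OV, against 1335, 1267 and 1274 FPKM in 5NC, a log2 fold change of -0.90 ± 0.056 (limma adjusted p = 7.28e-08). Rpl5 and Rpl11, which as free proteins bind the p53 ligase Mdm2, rose by 0.37 ± 0.031 and 0.38 ± 0.049 on the log2 scale (limma adjusted p = 4.36e-07 and 1.36e-05). With the GC correction Rpl5 was no longer called (0.08), and against 3NC Rpl11 was 0.05. Rps19, the gene most often mutated in Diamond-Blackfan anaemia, averaged 783 ± 8.23 FPKM in 8276OV and 776 ± 6.20 FPKM in 5NC (SD, n = 3 each), a difference that did not pass the test (log2 fold change 0.01 ± 0.031, limma adjusted p = 0.746). The same gene was -0.42 on the log2 scale against 3NC, -0.11 under quantile normalization and 0.68 after the GC correction. Rpl13a, a gene widely used as a reference in quantitative PCR, fell by 0.70 on the log2 scale, while Rps6 (0.12 ± 0.11) and Rpl29 (-0.09 ± 0.099), the lowest of each subunit, did not pass the test, and Rpl29 was 0.42 after the GC correction. Rpl23a, the highest of the large subunit, rose by 0.32 on the log2 scale, but was -0.15 under quantile normalization and -0.02 against 3NC.

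Knockdown of lncRNA8276 gave smaller changes, mostly downward. Against 3NC, 7 of the 77 genes rose in 8276KD and 36 fell (limma), against 20% and 19.5% of all tested genes. In the small subunit 3 rose and 15 fell, and in the large subunit 4 rose and 21 fell, with medians of -0.17 and -0.09 on the log2 scale against 0.00 for all tested genes. All 3 8276KD libraries lay above all 3 of 3NC in 4 small and 8 large subunit genes and below them in 16 and 23, against 24.6% and 25% of all tested genes. With quantile normalization the split was 13 higher and 23 lower, with 20.3% and 18.7% of all tested genes. Against 5NC instead, 39 genes were higher and 17 lower in 8276KD, with 24.7% and 30.5% of all tested genes. Of the 36 genes that fell against 3NC, 6 were higher and 17 lower against 5NC, and all 7 that rose were also higher against 5NC. Without 3NC replicate 3, or without 8276KD replicate 3, 4 genes rose, with 15.5% and 15.4% of all tested genes in these fits. Of the 43 calls, 16 were lost in at least 1 fit that left out a library.

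Rpl36 had the largest fall under knockdown, with 579, 633 and 568 FPKM in 8276KD against 922, 884 and 868 FPKM in 3NC, a log2 fold change of -0.59 ± 0.086 (limma adjusted p = 0.000147). Rpl18 had 1340, 1571 and 1331 FPKM in 8276KD, against 1968, 1868 and 2060 FPKM in 3NC (-0.48 ± 0.074, limma adjusted p = 0.000214). In both genes every 8276KD library was below every 3NC library. Rpl13a, Rpl7a and Rpl28 followed in the large subunit with -0.42, -0.38 and -0.35. In the small subunit the largest falls were those of Rps15 (-0.43), Rps10 (-0.41), Rps28 (-0.38), Rps2 (-0.37) and Rps19 (-0.35 on the log2 scale). With quantile normalization Rps2 was no longer called (-0.10, limma adjusted p = 0.186).

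Rps19, close to equal within groups, had 838, 835 and 803 FPKM in 8276KD, against 1053, 1048 and 1050 FPKM in 3NC (log2 fold change -0.35 ± 0.031, limma adjusted p = 2.34e-06). The 3NC libraries stood alone for this gene, since it averaged 783 FPKM in 8276OV and 776 FPKM in 5NC, and against 5NC its log2 fold change in 8276KD was 0.09. Rpsa changed by -0.30, Rplp0 by -0.19, Rplp1 by -0.22 and Rplp2 by -0.30, all past the threshold, though with quantile normalization Rplp1 was not called (-0.10). Rpl11 was at the threshold (-0.13, limma adjusted p = 0.0497; 0.223 without 8276KD replicate 1, and 0.20 on the log2 scale against 5NC), and Rpl5 (0.07) and Rps6 (-0.24) did not pass it.

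The 7 genes that rose under knockdown were Rps27l (0.32), Rps29 (0.32), Rps24 (0.26), Rpl36a (0.17), Rpl38 (0.16), Rpl9 (0.15) and Rpl30 (0.13 on the log2 scale). Rps29, a zinc-binding protein of the small subunit, had 1065, 1201 and 1296 FPKM in 8276KD, against 882, 1028 and 946 FPKM in 3NC (limma adjusted p = 0.00547). Rps27l had 265.3, 296.2 and 319.3 FPKM in 8276KD, against 238.8, 238.8 and 225.4 FPKM in 3NC (limma adjusted p = 0.00393). The groups did not overlap in either gene. The 4 smallest rises were less stable: without 3NC replicate 3, Rpl36a (0.15), Rpl9 (0.13) and Rpl30 (0.11) were not called, and without 8276KD replicate 3, Rpl38 (0.13), Rpl9 (0.12) and Rpl30 (0.09) were not. Without 3NC replicate 1 the same was true of Rpl38 (0.13) and Rpl30 (0.12). Rpl39 averaged 1508 ± 187 FPKM in 8276KD and 1316 ± 80.1 FPKM in 3NC (SD, n = 3 each), which did not pass the test (0.19 ± 0.083, limma adjusted p = 0.0856).

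Most of the family did not move in opposite directions under overexpression and knockdown, in 2 comparisons that share no library. Over all tested genes, however, 8276OV and 8276KD libraries numbered 1 and 2 deviated together from their group means (r = 0.47 and 0.59). Those numbered 3 did not (0.029). Libraries of unlike number also deviated together or in opposite directions. The r was 0.359 for 8276OV 1 and 8276KD 3, and -0.602 for 8276OV 1 and 8276KD 2. For 8276OV 2 it was -0.455 with 8276KD 1 and -0.356 with 8276KD 3. All 19 genes that fell in 8276OV also fell in 8276KD, which is 100% of the overexpression list and 52.8% of the knockdown list, and all 7 that rose in 8276KD also rose in 8276OV. Of all tested genes, 44.1% fell and 30.3% rose in 8276OV, and 19.5% fell and 20% rose in 8276KD. The share of all tested genes called in both is not given here. A further 8 genes rose in 8276OV and fell in 8276KD, none did the opposite, and 30 rose in 8276OV and were not called in 8276KD. Across the 77 genes the fold changes of the 2 comparisons correlated with Spearman's rho = 0.85, and with 0.67 after a correction for GC content. That correction did not remove the relation to GC content from the family under knockdown. After it, rho of the fold change with GC content was -0.42 across the family under knockdown and -0.02 under overexpression. The rho between the 2 comparisons over all tested genes is not given here. This is a description across genes that share libraries, transcript features and, for many, near-identical copies.

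**Figure D3:**
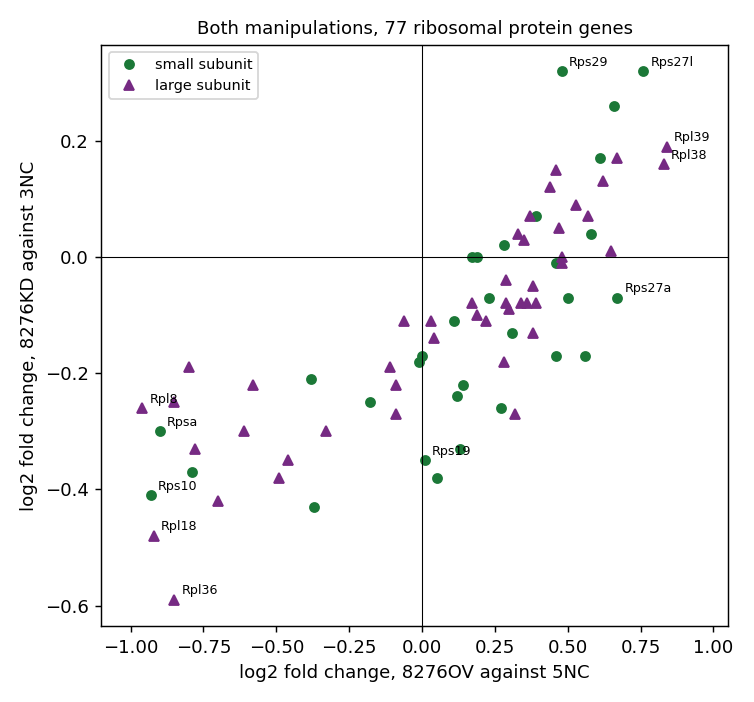
Log2 fold change of 8276KD against 3NC (vertical axis) plotted on that of 8276OV against 5NC (horizontal axis) for 77 ribosomal protein genes, with small subunit genes as circles and large subunit genes as triangles. The points rise along a diagonal (Spearman's rho = 0.85) with a shallower vertical range, and the lower right of the plot holds genes such as Rps27a that are above 0 on the horizontal and below 0 on the vertical axis.

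The size of the effects, each against its own control group, differed between the manipulations. The overexpression effect minus the knockdown effect was above 0 for 49 genes and below 0 for 11 (limma test of the difference), against 24.5% and 36.2% of all tested genes. This difference also contains the gap between the control groups. In the genes named next with a positive difference, 5NC against 3NC ran from -0.25 (Rpl39) to -0.46 (Rps25) on the log2 scale. In those named with a negative difference it ran from -0.22 (Rpl18) to 0.19 (Rpsa and Rplp0). Rps27a (0.74 ± 0.051, limma adjusted p = 3.77e-07) and Rps12 (0.73 ± 0.047, limma adjusted p = 2.79e-07) led the positive differences in the small subunit, followed by Rps23 (0.63), Rps25 (0.57) and Rps4x (0.54). In the large subunit Rpl38 (0.67), Rpl39 (0.65), Rpl22 (0.64), Rpl23a (0.60) and Rpl11 (0.51) led, though with quantile normalization those of Rpl38 (0.26) and Rpl23a (0.08) were smaller. Rpl8 had the largest negative difference (-0.70 ± 0.10, limma adjusted p = 8.28e-05), and Rplp0 (-0.61), Rpl13 (-0.61) and Rpl18 (-0.45) in the large subunit and Rpsa (-0.60), Rps10 (-0.52) and Rps2 (-0.42) in the small were also below 0. After the correction for GC content the differences of Rps10 (0.08), Rpl18 (0.06) and Rps2 (0.00) were no longer negative, while those of Rplp0 (-0.38) and Rpsa (-0.52) remained below 0.

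The control groups themselves differed in most of the family in the values as deposited. In 5NC, 2 genes were higher and 50 lower than in 3NC (limma), against 30.6% and 25.9% of all tested genes, with medians of -0.20 for the small and -0.19 for the large subunit. All 3 5NC libraries lay below all 3 of 3NC in 22 small and 35 large subunit genes and above them in 1 and 3, against 31.9% and 37.6% of all tested genes. With quantile normalization 10 were higher and 24 lower, against 27.7% and 29% of all tested genes, and 43 were not called. The 2 higher genes were Rpsa and Rplp0, at 0.19 each. Rps25, which is needed for some forms of internal initiation, had 731, 691 and 677 FPKM in 5NC, against 946, 970 and 964 FPKM in 3NC (log2 fold change -0.46 ± 0.044, limma adjusted p = 1.38e-06). Rps19 followed with -0.44, Rps12 and Rps14 with -0.37 each and Rps23 with -0.36. In the large subunit the largest falls were those of Rpl38 (-0.41), Rpl15 (-0.36), Rpl23a (-0.35), Rpl36a (-0.33) and Rpl11 (-0.33). Genes that fell strongly under overexpression varied in this comparison. Rps10 (-0.08), Rps2 (0.04), Rpl8 (0.04) and Rpl13 (-0.01) did not pass the test. Rpl18 was lower in 5NC than in 3NC (-0.22, limma adjusted p = 0.0225), while Rpsa and Rplp0 were higher, as given above.

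The summed level of the family was higher in 8276OV than in 5NC and lower in 8276KD than in 3NC. Small subunit genes summed to 41630 ± 1434 FPKM in 8276OV and 38277 ± 1236 FPKM in 5NC, and to 39784 ± 2073 FPKM in 8276KD and 43905 ± 348 FPKM in 3NC (SD, n = 3 each). Large subunit genes summed to 67224 ± 1677 FPKM in 8276OV and 61606 ± 929 FPKM in 5NC, and to 63782 ± 2361 FPKM in 8276KD and 68871 ± 519 FPKM in 3NC. In both subunits every 8276OV library was above every 5NC library, and every 8276KD library was below every 3NC library, with no test. With the other control group the directions were reversed. In both subunits every 8276OV library was below every 3NC library, and the mean of 8276KD was above that of 5NC, with overlapping libraries. Median-of-ratios factors put the small subunit at 43106 in 8276OV, 37186 in 5NC and 43517 in 3NC. They put the large subunit at 69608 in 8276OV and 68263 in 3NC. The family took up 18.3% to 20.5% of the summed values of a library, and the large subunit summed to 1.56 to 1.64 times the small subunit.

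**Figure D4:**
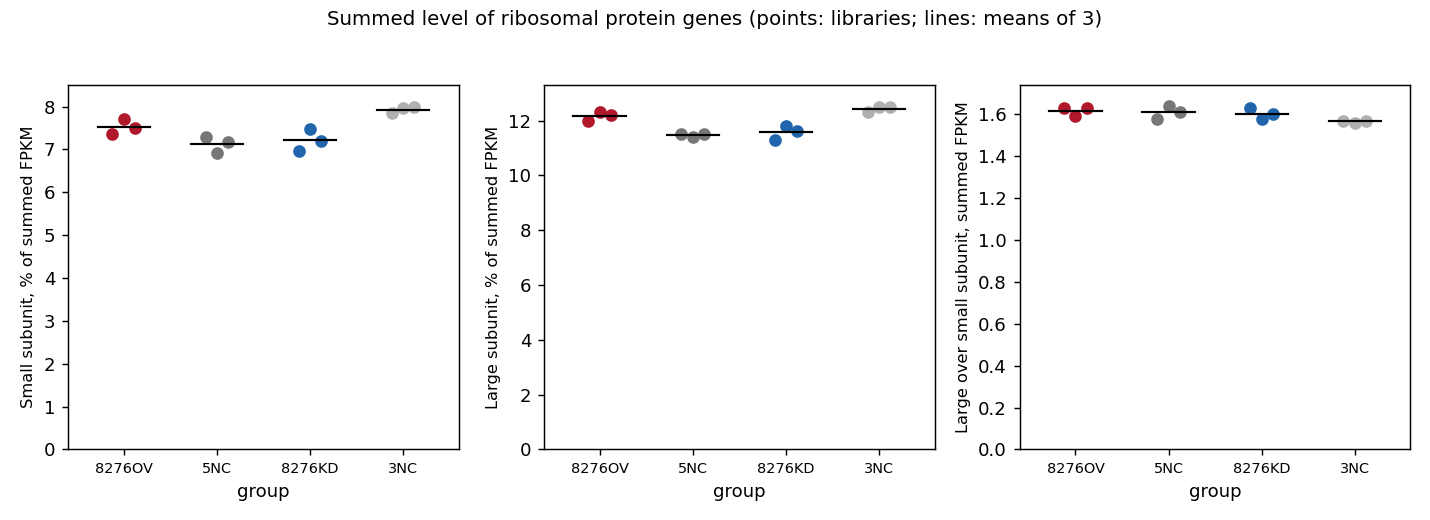
Summed level of the small subunit (left) and of the large subunit (middle) as a percentage of all summed FPKM values of a library, and their ratio (right), by group, where each point is a library and the line is the mean of 3. The small subunit took 7.52 ± 0.18% in 8276OV, 7.13 ± 0.18% in 5NC, 7.21 ± 0.25% in 8276KD and 7.93 ± 0.07% in 3NC (SD), and the ratio stayed between 1.56 and 1.64.

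The GC content of the transcript, which the choice of genes did not use, ordered the fold changes. Median GC content was 49.2% for the 45 genes that rose under overexpression, 54.6% for the 19 that fell and 51.6% for all 77. Of the 26 genes with the lowest GC content, 25 rose and none fell, and of the 26 with the highest, 6 rose and 13 fell. Spearman's rho of the fold change with GC content was -0.59 across the 77 genes and -0.81 across all 11197 tested genes with a transcript. Under knockdown the same rho was -0.56 across the family and -0.23 across all genes, with 4 higher and 3 lower among the 26 genes of lowest GC content and 2 higher and 19 lower among the 26 of highest.

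The libraries themselves differed in this respect. Slopes on GC content were taken from each gene's log2 level minus its mean over the 12 libraries, so they are relative between libraries. Per 10 percentage points, the slope over all genes was -0.48, -0.25 and -0.37 in the 8276OV libraries, against 0.21, 0.15 and 0.19 in 5NC. It was -0.044, 0.19 and -0.0034 in the 8276KD libraries, against 0.13, 0.11 and 0.16 in 3NC. The second replicate had the highest slope of its group in 8276OV and in 8276KD. It stood apart only in 8276KD, since the 8276OV slopes were evenly spread. Removing a spline of GC content in each library left 54 genes higher and 12 lower in 8276OV, with 26.8% and 27.1% of all tested genes, and 7 higher and 38 lower in 8276KD, with 25.4% and 23.5%. Of the 19 genes that fell in 8276OV, 12 still fell after this correction, 2 rose and 5 were not called. A spline of transcript length added to it gave 44 higher and 18 lower in 8276OV, with 27.7% and 25.9% of all tested genes. Without the second replicates of 8276OV and 8276KD, as deposited, 45 were higher and 20 lower in 8276OV, with 32.6% and 45.1% of all tested genes. In 8276KD 10 were then higher and 43 lower, with 24.8% and 25.2% of all tested genes. The part of library preparation in these slopes was not tested.

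**Figure D5:**
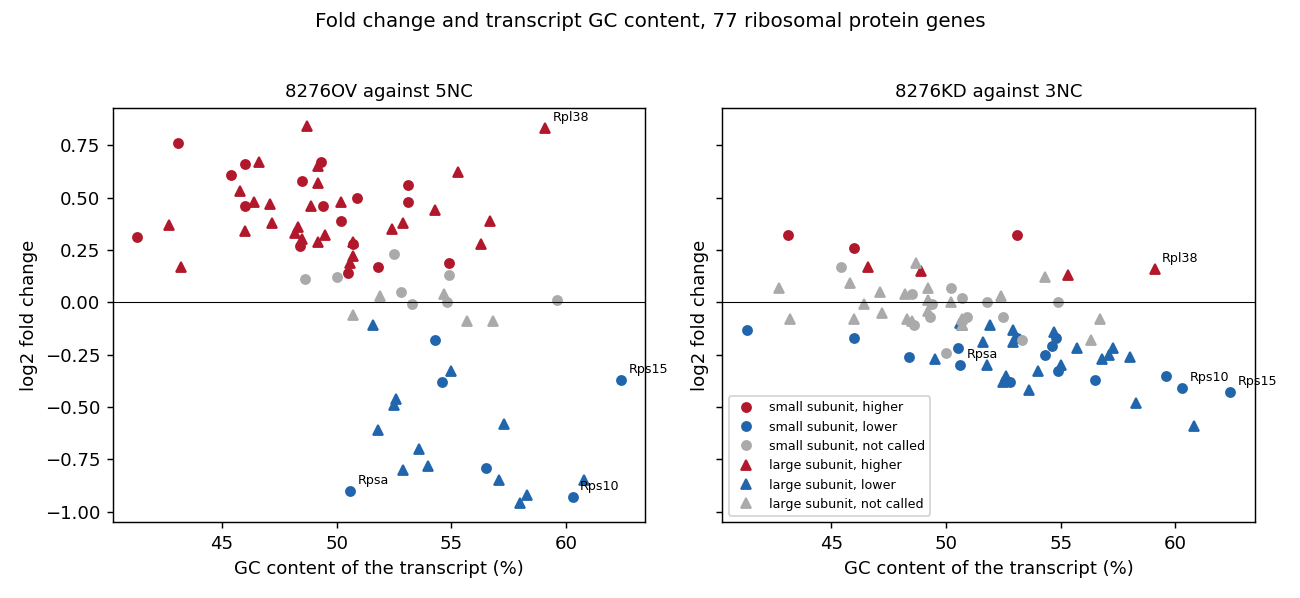
Log2 fold change of 8276OV against 5NC (left) and of 8276KD against 3NC (right) plotted on the GC content of the transcript in percent, for 77 ribosomal protein genes, with small subunit genes as circles and large subunit genes as triangles, red where higher, blue where lower and grey where not called. On the left nearly all genes below 49.4% GC are red and most of those above 53.3% are blue or grey, with Rpl38 high at 59.1% and Rpsa low at 50.6%.

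Some genes stood off this relation. Rpl38, at 59.1% GC among the most GC-rich of the family, rose, and its log2 fold change was 1.47 after the GC correction. Rpsa, at 50.6% near the middle, fell by 0.90 on the log2 scale and by 0.82 after it. Rplp0 kept -0.55 and Rpl8 -0.38. Rps15, the most GC-rich at 62.4%, turned to 0.42, Rps10 shrank to -0.23, and Rpl36 (-0.13, limma adjusted p = 0.0742) no longer passed the test unless length was added to the correction.

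The counts of the lists of related genes below stand beside 30.3% of all tested genes that rose and 44.1% that fell in 8276OV, and 20% that rose and 19.5% that fell in 8276KD. Of 7 tested ribosomal protein genes and close copies whose names fall outside the rule, 3 rose and 3 fell in 8276OV, and 4 rose and 2 fell in 8276KD. Fau, which carries Rps30, fell in both (-0.94, or -0.23 after the GC correction, and -0.48), and Rpl36al (0.73 and 0.30) and Rpl22l1 (0.64 and 0.64 on the log2 scale) rose in both, though Rpl22l1 was -0.01 under overexpression after correction for GC content and length. Rps3a1 rose by 0.55 under overexpression. Of 38 ribosome biogenesis factors, 19 rose and 12 fell in 8276OV, and 7 rose and 11 fell in 8276KD. Among them the nucleolar proteins Npm1 and Ncl rose by 0.70 and 0.50 under overexpression, with Wdr12 (0.63) and Nop10 (0.58). After the GC correction these values were 0.40 for Npm1, 0.21 for Ncl, 0.27 for Wdr12 and 0.42 for Nop10. Under knockdown Rsl24d1 (0.35), Nop58 (0.24) and Ncl (0.21) rose and Pes1 fell (-0.31), but against 5NC Nop58 was -0.28 and Pes1 0.03.

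Of 14 RNA polymerase I genes, which transcribe ribosomal RNA, 9 rose and 5 fell in 8276OV, and 2 rose and 2 fell in 8276KD. The rDNA factor Ubtf was -0.49 under overexpression and 0.22 under knockdown (-0.05 against 5NC), Polr1d changed by -0.26 (0.00 against 5NC) and Polr1c by -0.28 under knockdown, and Taf1d rose in both (0.61 and 0.21, the first of which was 0.27 after the GC correction). The knockdown counts of these 14 genes are near the shares of all tested genes. Of 14 elongation factors and other TOP mRNAs, 8 rose and 5 fell in 8276OV, and none rose and 6 fell in 8276KD. The most abundant of them, Eef1a1, averaged 6968 ± 100 FPKM in 8276OV and 5433 ± 26.7 FPKM in 5NC, and 5451 ± 37.6 FPKM in 8276KD and 6088 ± 109 FPKM in 3NC (SD, n = 3 each). Its log2 fold changes were 0.36 and -0.16, the first of which was 0.00 under quantile normalization. Hnrnpa1 and Tpt1 rose by 0.61 each and Eef1b2 by 0.48 under overexpression (0.41, 0.87 and 0.31 after the GC correction), and under knockdown Eef2 (-0.44), Vim (-0.28) and Eif4b (-0.22, but 0.13 against 5NC) fell.

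Of 17 regulators of TOP translation and of these genes, 4 rose and 10 fell in 8276OV, and 2 rose and 2 fell in 8276KD. Eif4ebp1, a repressor of cap-dependent translation that mTOR inactivates, had the largest change, with 262 ± 24.5 FPKM in 8276OV and 540 ± 16.9 FPKM in 5NC (SD, n = 3 each), a log2 fold change of -1.05 ± 0.069 (limma adjusted p = 9.62e-08) and -1.12 after the GC correction. The cap-binding protein Eif4e rose by 0.55 (0.19 after the GC correction), and Akt1 and Eif4ebp2 changed by -0.73 and -0.41 (-0.06 and 0.09 after the GC correction). Under knockdown Myc, a known activator of ribosome production, fell (-0.38), with Mtor (-0.19), and Eif4ebp2 (0.18) and Rheb (0.19, but -0.15 against 5NC) rose. Of 4 genes of p53 regulation, Mdm2 (0.37) and Mdm4 (0.33) rose and Trp53 (-0.59) and Cdkn1a (-0.34) fell in 8276OV, and Cdkn1a fell in 8276KD (-0.62) while the others were not called. After the GC correction Mdm4 (0.06) and Cdkn1a (0.02) were not called in 8276OV. Against 3NC, Mdm2 was -0.01 and Mdm4 -0.10 in 8276OV, and against 5NC, Cdkn1a was 1.09 in 8276KD.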

How the data were processed

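The authors deposited 1 table with 17576 genes in rows and 12 libraries in columns. Its values were read as FPKM from the values themselves (TPM cannot be told apart), as deposited, with no unit named in the sources used here. Per the submitters' processing notes, reads were placed on mm10. Aligner, quantifier, annotation, strand setting and treatment of reads with several matches: not given in the sources used here. Genes with at least 1 FPKM in at least 3 libraries (11360, including 77 of the 80 ribosomal protein genes) were tested on log2(FPKM + 1) with limma 3.58.1 in R 4.3.3. The model had 1 coefficient per group over the 12 libraries (eBayes with trend and robust), with two-sided p-values adjusted over all genes by the Benjamini-Hochberg method and a threshold of 0.05. The test was checked on simulated data. Fold changes are on the log2(FPKM + 1) scale and understate changes of low genes. With 3 libraries against 3, the smallest p of an exact permutation test is 0.1, so none was run.

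Transcript GC content, length and near-identical copies (BLAST+ 2.17.0) came from GENCODE M21 transcripts of GRCm38, which covered 98.6% of tested genes. A single transcript stood for each gene: a RefSeq-matched one was preferred, then a protein-coding one, then the longest. GC content, length and the corrected values depend on this choice, which may not be the main transcript in these cells. The GC correction removed, per library, a natural spline with 5 degrees of freedom. Alternatives covered the pseudocount, the filter, scaling, GC content and length, the control group, the libraries in the fit and each left-out library. Named in each comparison and subunit were the 5 called genes with the largest rise and fall (without overlap of groups for the manipulations), a fixed set (stalk genes, Rpsa, Rps6, Rpl5, Rpl11 and others), the highest and lowest gene of each subunit, and up to 4 called genes of each other list. The members and lists were chosen with earlier results of these data known. Depth was inferred from the lowest values, and no counts are at hand, so no counting intervals are given. A few genes that the rule or lists name are counted but not reported here by name.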

Additional observations from a re-analysis of the deposited data

How the results depend on the processing

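Genes higher and lower in 8276OV against 5NC numbered 45 and 19 and, over fits without 1 library, 44 to 47 and 18 to 19. With GC correction 12 were lower. For 8276KD against 3NC (7 and 36), leaving out a library gave 4 to 10 and 24 to 42. The counts were 13 and 23 with quantile normalization and 39 and 17 against 5NC, and the higher count was 4 with GC and length correction and 26 against both control groups together. For 5NC against 3NC (2 and 50), leaving out a library gave 2 to 3 and 43 to 52. Quantile normalization gave 10 and 24, and 4 were higher with library sums made equal, with only the 2 groups in the fit, and without 8276OV replicate 2 and 8276KD replicate 2, a setting added after seeing the data. For the difference of effects (49 above and 11 below 0), leaving out a library gave 46 to 55 and 10 to 13, and the count below 0 was 17 with quantile normalization, 5 with GC correction and 6 with GC and length correction. Quantile normalization moved the median log2 fold change of all genes in 8276OV against 5NC to 0.03, against -0.09 as deposited. At least 1 fit without a library ended 3 of 64 calls in 8276OV against 5NC (Rpl12, Rps16 and Rps18), 16 of 43 in 8276KD against 3NC and 12 of 52 in 5NC against 3NC. Within the comparisons, samples with the same replicate number did not deviate together (r of -0.15, -0.18 and -0.028 for 8276OV and 5NC, -0.0048, -0.18 and -0.15 for 8276KD and 3NC, and 0.041, 0.088 and 0.046 for 5NC and 3NC). Between 8276OV and 8276KD, numbers 1 and 2 did (0.47 and 0.59) and number 3 did not (0.029). Unlike numbers of these groups were also related, such as 8276OV 1 with 8276KD 3 (0.359) and with 8276KD 2 (-0.602). A fit with the replicate number as a block gave 45 and 19, 6 and 32, and 2 and 49, with 48 and 11 for the difference of effects.

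Summed levels moved by more than 1 SD with median-of-ratios factors, to 43106 for the small and 69608 for the large subunit in 8276OV, 59850 for the large in 5NC, and 43517 for the small and 68263 for the large in 3NC. With library sums made equal they moved to 62957 for the large in 5NC, and to 43526 for the small and 68277 for the large in 3NC.

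Of 169 single gene results, 87 kept direction and side of the threshold under every alternative. A change of sign where neither value passed the threshold is not counted as a reversal below. The cause of the reversals was not tested beyond the setting itself. Reversed in 8276OV against 5NC with GC correction were Cdkn1a (0.02), Eif4ebp2 (0.09), Rpl29 (0.42), Rplp2 (0.07) and Rps15 (0.42), and with GC and length correction Cdkn1a (0.01), Eif4ebp2 (0.07), Rpl22l1 (-0.01), Rpl29 (0.26), Rps15 (0.19) and Rps27 (-0.07). With quantile normalization these were Eef1a1 (0.00), Rpl23a (-0.15) and Rps19 (-0.11), and against both control groups Rps19 (-0.21). Against 3NC they were Mdm2 (-0.01), Mdm4 (-0.10), Polr1e (-0.08), Rpl10 (-0.06), Rpl23a (-0.02), Rps19 (-0.42) and Rps3 (-0.03). In 8276KD, against 5NC, Cdkn1a (1.09), Eef1a1 (0.00), Eif4b (0.13), Nop58 (-0.28), Pes1 (0.03), Polr1d (0.00), Rheb (-0.15), Rpl10 (0.15), Rpl11 (0.20), Rpl23a (0.07), Rps19 (0.09), Rps27a (0.28), Rps3 (0.04) and Ubtf (-0.05) reversed, and against both control groups Cdkn1a (0.23), Nop58 (-0.02), Rpl10 (0.03), Rpl11 (0.03) and Rps27a (0.10). In 5NC against 3NC, Rpl5 reversed with quantile normalization (0.06). In the difference of effects, GC correction reversed Rpl18 (0.06), Rplp1 (0.10), Rplp2 (0.32), Rps10 (0.08) and Rps2 (0.00), GC and length correction Rplp2 (0.25), and quantile normalization Rps27 (-0.01).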

Other observations

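Over the 12 libraries, the non-members whose log2 level followed the mean standardised level of the 77 genes most closely were Pgm3 (Pearson's r = 0.922), Rpap3 (0.914), Snrpd2 (0.906), Scnm1 (0.905) and Zranb3 (0.894). The r of single members with that mean ran between -0.43 and 0.95. The 12 points fall into 4 groups, so these are descriptions with no test. Against 5NC, 5 of the 8 tested genes without a near-identical copy rose and 1 fell in 8276OV, and 40 of the 69 with such a copy rose and 18 fell. Against 3NC, 3 of the 8 rose and 2 fell in 8276KD, and 4 of the 69 rose and 34 fell.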
